A study of Mus musculus with 60 samples.

Results

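The receptor set consists of 7 subunit genes of the GABA-A receptor, chosen by symbol and not by any measured value: Gabra2, Gabra3, Gabra4, Gabra5, Gabrb1, Gabrb2 and Gabrd. Each symbol matched 1 row among the 18088 genes of the deposited table, and 7 of 7 passed the filter on low values. A further 7 of the 12 remaining subunit genes of the family were in the table and are given as context. The study sequenced prefrontal cortex RNA of 60 C57BL/6J mice at postnatal day 25, with 5 mice in each of 12 groups. Mice were heterozygous for the K228E allele of Tbr1 (HT) or wild type (WT), female or male, and had received fluoxetine, lithium or vehicle. Pups took up the drug by nursing, between days 3 and 24, which is 3 weeks. Tbr1 is a transcription factor that deep-layer neurons of the cortex need, fluoxetine is a serotonin reuptake inhibitor and lithium is a mood stabiliser. The 6 groups of each sex are thus HT mice on fluoxetine, lithium or vehicle and WT mice on fluoxetine, lithium or vehicle. K228E mice are reported to have altered inhibition, and the comparisons ask how the genotype and each drug bear on the genes of the receptor for the main inhibitory transmitter. The labels name no litter or dam. Pups that shared a dam would have shared its milk, so p-values here speak only of the spread among the mice sampled.

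GABA-A receptors are chloride channels opened by GABA and built from 5 subunits, usually a pair of α, a pair of β and a γ or δ subunit. The α subunit sets much of the pharmacology and placement. Receptors with α2 or α3 lie mostly at synapses, α5 is found largely outside them on pyramidal cells, and the δ subunit, often partnered by α4, forms extrasynaptic receptors that carry tonic inhibition and respond strongly to neurosteroids. The β subunits are needed for assembly and for binding GABA. In rodent forebrain the subunits change during the first postnatal weeks, with α2, α3 and α5 receding while α4 and δ rise.

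Levels are reads scaled by the size factor of the library, called normalised reads below, from libraries of 23930164 to 36515331 reads. Changes were tested with limma on log2(value + 1) in all 60 libraries, and a gene was called at an adjusted p (Benjamini-Hochberg over 17781 genes) below 0.05. All fold changes are log2 values with a standard error, and the sexes are averaged unless a sex is named. The libraries of the 10 vehicle males stood apart. They lay at 17.8 to 47.9 on the second principal component of all genes, which held 9.46% of the variance, while the other 50 libraries lay at -32.0 to 12.5. In males, treatment and this separation cannot be told apart, so female values stand beside the members' drug results. Markers of the olfactory bulb, a neighbour of prefrontal cortex in dissection, were read in every library, and the mean log2 value of the 7 markers was 6.05, 7.71 and 8.52 in HT mice on fluoxetine, lithium and vehicle, and 5.63, 8.83 and 10.008 in WT mice on fluoxetine, lithium and vehicle. Markers of cortical excitatory neurons were read in all libraries. Their mean log2 value was 11.3, 11.2 and 11.2 in HT mice on fluoxetine, lithium and vehicle, and 11.3, 11.1 and 10.8 in WT mice on fluoxetine, lithium and vehicle. The part of these marker levels in each drug result was not tested other than by the fits given beside it. In WT mice the bulb marker means did not overlap, at 4.07 to 7.67 on fluoxetine and 8.915 to 11.1 on vehicle. A fit with that covariate thus cannot separate fluoxetine from bulb marker level in WT mice. Tbr1 had medians of 4742, 4316 and 4343 normalised reads in HT mice on fluoxetine, lithium and vehicle, and 3669, 3019 and 2387 in WT mice on fluoxetine, lithium and vehicle. These reads do not tell the alleles apart.

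Several members share loci (GRCm38). Gabra2 (ENSMUSG00000000560, chromosome 5, 70957597 to 71095849), Gabra4 (ENSMUSG00000029211, chromosome 5, 71569749 to 71658308) and Gabrb1 (ENSMUSG00000029212, chromosome 5, 71658113 to 72149037) belong to 1 cluster. Gabra4 lies on the minus strand and Gabrb1 on the plus strand, and their 5′ ends overlap by 196 bases. Gabra5 (ENSMUSG00000055078, chromosome 7, 57407672 to 57510059, minus strand) overlaps the antisense gene Gm9962 on the other strand. The kit marked strand, but the strand setting used in counting is not given in the sources used here, so reads from the overlapping ends are uncertain. Gabrb2 (ENSMUSG00000007653) lies on chromosome 11, 42419757 to 42629028, Gabra3 (ENSMUSG00000031343) on chromosome X, 72432681 to 72656848, and Gabrd (ENSMUSG00000029054) on chromosome 4, 155384980 to 155398112.

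RefSeq promoter windows (GRCm38.p6) matched 6 of the 7 members, all but Gabrd, with 10 windows in all. The stretches below are shown because Gabra4 and Gabrb1 are neighbours whose levels moved together between libraries, while Gabra5 moved against them. Each runs 5′ to 3′ on the gene's strand, without bases that an annotated exon covers, so that the Gabra4 stretch ends 56 bases before its start site and the other stretches end at theirs. Capitals mark the palindromic motif of NRF1, a factor that in rat neurons has been described as a regulator of the Gabrb1 gene.
Gabra4, chr5:71658364-71658558, minus strand: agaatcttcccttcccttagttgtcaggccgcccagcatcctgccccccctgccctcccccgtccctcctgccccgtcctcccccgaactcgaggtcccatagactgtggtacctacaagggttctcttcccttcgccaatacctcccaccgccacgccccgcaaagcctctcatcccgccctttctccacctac
Gabrb1, downstream start site, chr5:71699825-71699931, plus strand: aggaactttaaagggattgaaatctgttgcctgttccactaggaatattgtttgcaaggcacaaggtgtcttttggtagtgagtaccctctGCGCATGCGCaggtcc
Gabra5, chr7:57510060-57510309, minus strand: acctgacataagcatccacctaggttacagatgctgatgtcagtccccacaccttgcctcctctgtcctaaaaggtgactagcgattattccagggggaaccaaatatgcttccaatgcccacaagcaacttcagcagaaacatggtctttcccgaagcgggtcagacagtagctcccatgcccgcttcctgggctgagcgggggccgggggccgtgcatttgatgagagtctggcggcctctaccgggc
The NRF1 motif began 16 bases before the downstream start site of Gabrb1. It was not in the upstream Gabrb1 window (71657671 to 71657920), which lies next to Gabra4 and is not shown, and was in no other member's window. Which Gabrb1 start site was in use in these libraries was not tested. The NRF1 motif was in 257 of all 32851 windows of 250 bases (0.782%). The other motifs searched on both strands were TATAAA, TGACGTCA (the cyclic AMP response element) and GCGTGGGCG (an EGR motif), and none overlapped another in the stretches shown. TATAAA was in windows of Gabrb2 and Gabra3 and in 12.4% of all windows. TGACGTCA and GCGTGGGCG were in no member's window, against 1.55% and 0.536% of all windows. A match describes letters only.

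All 7 genes were well read, with at least 1002 reads for every member in every library. Per kilobase of exon, the mean level over the 60 libraries was 1121 normalised reads for Gabra3, 658 for Gabra5, 624 for Gabrd, 562 for Gabrb2, 509.7 for Gabra4, 298 for Gabra2 and 283 for Gabrb1. Gabra3 exceeded Gabra5 in 57 of 60 libraries, and Gabra4 exceeded Gabra2 in 56 of 60. Gabrd exceeded Gabrb2 in 51 of 60 libraries and Gabrb2 exceeded Gabra4 in 52 of 60. Neighbours in this order were not separated in 2 places: Gabra5 exceeded Gabrd in 24 of 60 libraries, and Gabra2 exceeded Gabrb1 in 29 of 60.

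**Figure D1:**
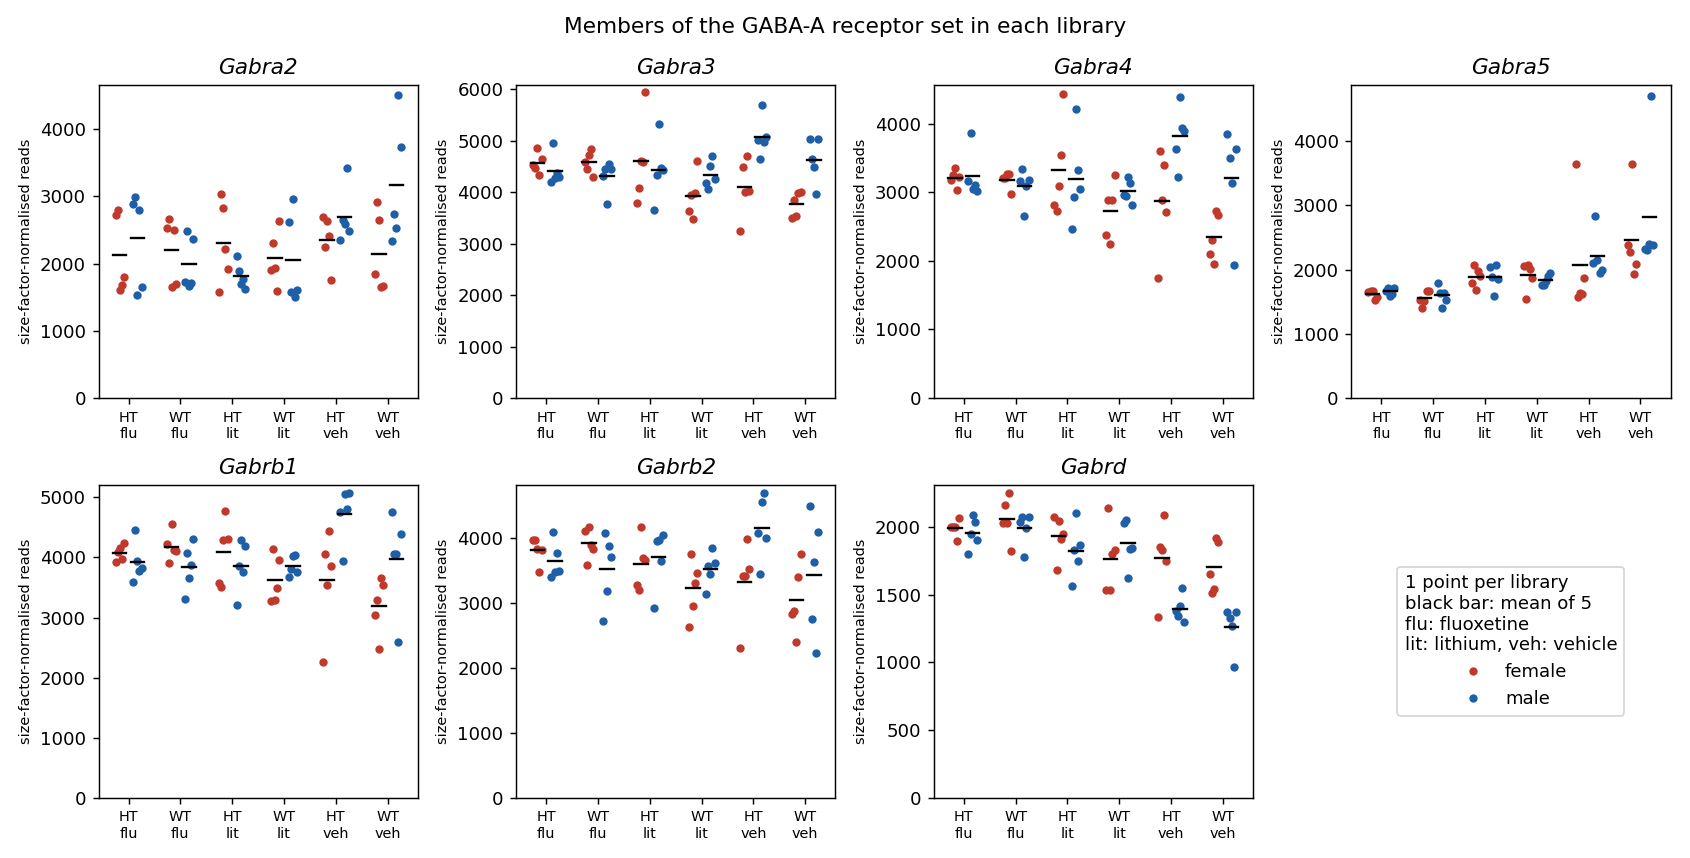
Normalised reads (y axis, from 0) of the 7 members in each of 60 libraries, by genotype and treatment (x axis) and sex (colour), with black bars for the mean of 5 mice. Gabrd is lowest in vehicle males, and Gabra2 falls into high and low libraries in each fluoxetine group. The mean of Gabra5 is highest on vehicle in each genotype and sex. In HT females its median on vehicle (1639) is below that on lithium (1893).

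Gabrd, which encodes the δ subunit, was higher under both drugs in both genotypes. In WT males it had 1782, 1992, 2037, 2075 and 2075 normalised reads on fluoxetine and 1624, 1840.1, 1847, 2026 and 2054 on lithium, against 965, 1270.4, 1327, 1372 and 1373 on vehicle. In HT males it had 1797, 1901, 1948, 2036 and 2089 on fluoxetine and 1566, 1749, 1829, 1870.2 and 2102 on lithium, against 1294, 1339.96, 1377, 1419 and 1550.2 on vehicle. Every drug-treated male thus lay above every vehicle male of its genotype. Here and below, no share of all genes stands beside groups that do not overlap, so each such separation describes the named values only. In WT females the values were 1819, 2032, 2033, 2163 and 2248 on fluoxetine, 1531, 1534, 1803, 1828 and 2139 on lithium and 1509, 1541, 1653, 1891 and 1921 on vehicle. In HT females they were 1894, 1998, 1999.9, 2002 and 2069 on fluoxetine, 1680.3, 1913, 1945, 2043 and 2073 on lithium and 1335, 1749, 1829, 1848 and 2085 on vehicle. Female groups overlapped, with 4 of 5 WT fluoxetine females above the highest WT vehicle female and no HT fluoxetine or lithium female above the highest HT vehicle female.

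Averaged over sexes, Gabrd rose by 0.34 ± 0.065 under fluoxetine in HT mice (adjusted p = 6.2e-05) and by 0.47 ± 0.065 in WT mice (adjusted p = 4.1e-08). Under lithium it rose by 0.26 ± 0.065 in HT mice (adjusted p = 0.0026) and by 0.31 ± 0.065 in WT mice (adjusted p = 0.00014). In every fit that left out 1 library these 4 calls were made. Among females alone the call was made only for fluoxetine in WT mice (0.28 ± 0.092, adjusted p = 0.016). The female values were 0.19 for fluoxetine in HT mice (interval 0.00 to 0.37), 0.14 for lithium in HT mice (-0.05 to 0.32) and 0.05 for lithium in WT mice (-0.14 to 0.23). Vehicle males had the lowest Gabrd of all groups, at 1396 ± 97.7 in HT and 1262 ± 171 in WT (SD, n = 5), against 1769 ± 273 in HT vehicle females and 1703 ± 193 in WT vehicle females. With the bulb marker level as a covariate the 4 changes were 0.18 and 0.19 for fluoxetine in HT and WT mice and 0.21 and 0.24 for lithium in HT and WT mice. Each was called, beside 23.8% and 19.4% of all genes for fluoxetine in HT and WT mice and 24.1% and 35.9% for lithium in HT and WT mice. For fluoxetine in WT mice that fit cannot separate the drug from bulb marker level, as said above. In females alone with that covariate, fluoxetine in WT mice gave -0.045 (adjusted p = 1).

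Gabra5, which encodes the α5 subunit, went the other way. In WT females it had 1407, 1507, 1531, 1662 and 1665 normalised reads on fluoxetine and 1541, 1865, 2011, 2061 and 2063 on lithium, against 1935, 2091, 2272, 2382 and 3637 on vehicle. In WT males it had 1404, 1526, 1636, 1639 and 1789 on fluoxetine and 1755, 1761, 1815, 1900.1 and 1942 on lithium, against 2302, 2312, 2379.6, 2397 and 4708 on vehicle. All 10 WT fluoxetine mice lay below all 10 WT vehicle mice, and so did 6 of 10 WT lithium mice. In HT females the values were 1532, 1568, 1648, 1664 and 1671 on fluoxetine, 1679, 1789.6, 1893, 1972 and 2068 on lithium and 1573, 1624, 1639, 1870.5 and 3643 on vehicle. In HT males they were 1589, 1619.95, 1667, 1710.3 and 1719 on fluoxetine, 1588, 1849, 1890.1, 2036 and 2063 on lithium and 1953, 1998, 2108, 2146 and 2826 on vehicle. Fluoxetine and vehicle males of the HT genotype did not overlap, while 2 of 5 HT fluoxetine females lay below every HT vehicle female.

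Under fluoxetine Gabra5 changed by -0.34 ± 0.11 in HT mice (adjusted p = 0.011) and by -0.69 ± 0.11 in WT mice (adjusted p = 3.9e-07). In WT mice the arithmetic mean of normalised reads on fluoxetine was 0.597 times that on vehicle, which includes the male at 4708. The WT medians were 1584 on fluoxetine and 2346 on vehicle. Under lithium it fell in WT mice (-0.45 ± 0.11, adjusted p = 0.0008) and was not called in HT mice (-0.14 ± 0.11, adjusted p = 0.38). In females alone neither lithium value was called, at -0.06 in HT mice (adjusted p = 0.88) and -0.34 in WT mice (adjusted p = 0.42). In males alone the lithium value was -0.56 in WT mice (adjusted p = 0.0021). The HT call under fluoxetine rested on 1 vehicle female with 3643 normalised reads, and without it the value was -0.22 with an adjusted p of 0.0521, while 33.8% of all genes were called. It was also lost with the bulb marker level as a covariate (-0.14, adjusted p = 0.36) and in females alone (-0.27, adjusted p = 0.26). The fall in WT mice on fluoxetine was called in females alone (-0.63 ± 0.15, adjusted p = 0.0021) and in males alone (-0.76 ± 0.15, adjusted p = 3.5e-05). With the bulb marker level as a covariate it was -0.35 (adjusted p = 0.041) over both sexes and -0.24 (adjusted p = 1) in females alone. Neither fit separates fluoxetine from bulb marker level, since the bulb means of these groups did not overlap. The difference between the genotypes in the response to fluoxetine was 0.36 ± 0.15 (adjusted p = 0.33), so the larger fall in WT mice was not called as different from that in HT mice.

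The ratio of Gabrd to Gabra5 in each library sets the δ subunit gene beside the α5 subunit gene, both mainly extrasynaptic, without length correction. Its lowest, median and highest values were 1.08, 1.21 and 1.32 in HT mice on fluoxetine, 0.769, 0.991 and 1.32 in HT mice on lithium, and 0.366, 0.728 and 1.28 in HT mice on vehicle. In WT mice they were 1.09, 1.298 and 1.54 on fluoxetine, 0.743, 0.96 and 1.39 on lithium, and 0.205, 0.585 and 0.993 on vehicle. Every WT fluoxetine mouse had a ratio above that of every WT vehicle mouse, and the ranges on lithium and vehicle overlapped in both genotypes. The ratio was lower in vehicle males than in vehicle females on average, at 0.646 in HT males and 0.9754 in HT females, and at 0.496 in WT males and 0.736 in WT females.

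In the count over all 7 members, 2 were called under fluoxetine in HT mice (Gabrd higher, Gabra5 lower), beside 40.8% of all genes tested (20.2% higher, 20.6% lower). Under fluoxetine in WT mice 3 were called (Gabrd and Gabrb2 higher, Gabra5 lower), beside 63.2% of all genes (31.7% higher, 31.5% lower). Under lithium 1 member was called in HT mice (Gabrd higher), beside 23.2% of all genes (12.6% higher, 10.6% lower), and 2 in WT mice (Gabrd higher, Gabra5 lower), beside 42.7% (21.8% higher, 20.9% lower). The share of members called in either direction lay below that of all genes in each comparison, so the counts are no result about the set. The median change of the 7 members was -0.02 and 0.19 under fluoxetine in HT and WT mice, and that of all genes tested -0.002 and -0.006. In bulk tissue, fewer cells of a type and less RNA per cell cannot be told apart. All drug comparisons within a genotype share the same vehicle libraries.

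**Figure D2:**
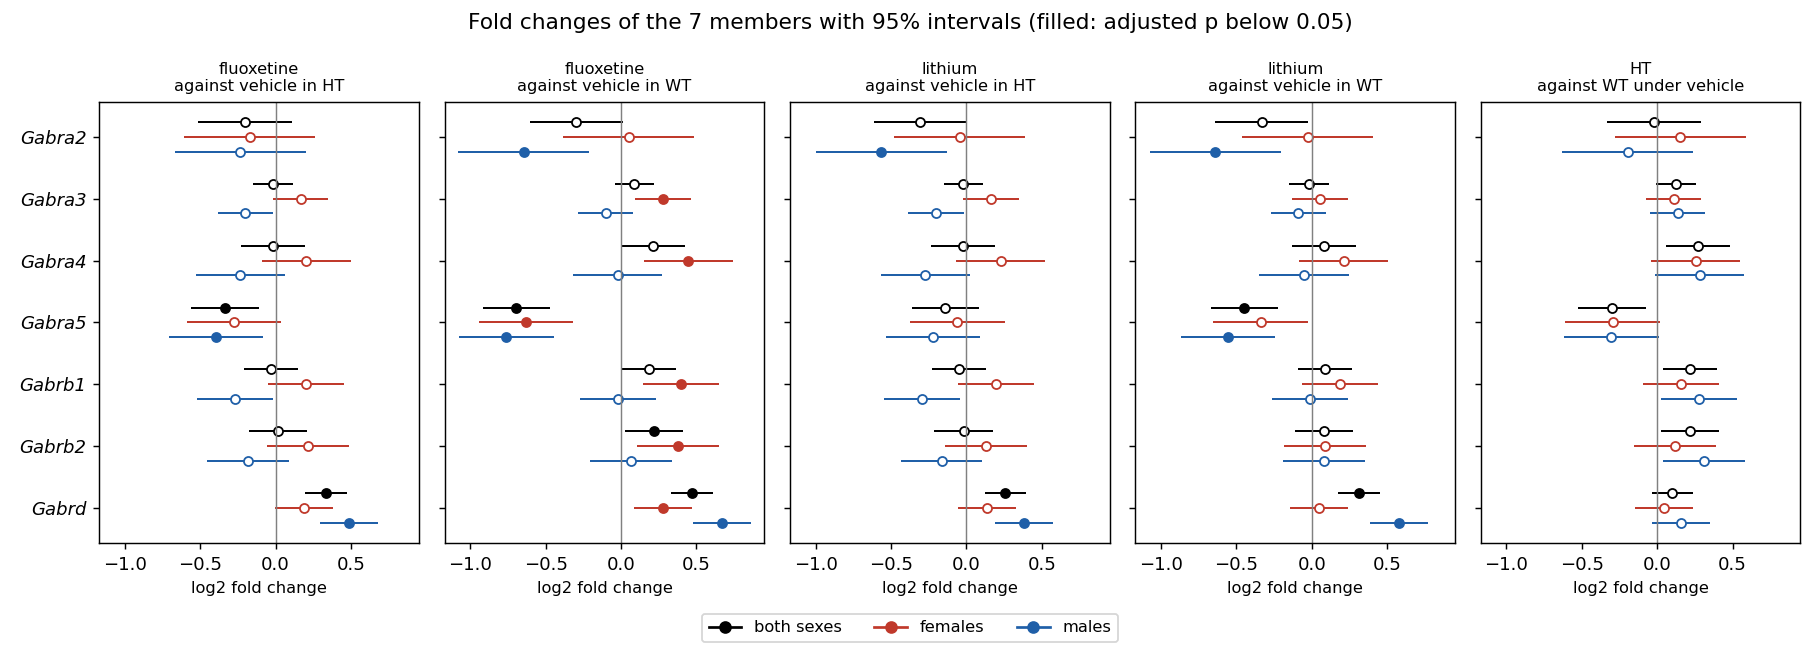
Log2 fold change (x axis) with 95% intervals of the 7 members (rows) for 4 drug comparisons and for HT against WT under vehicle, for both sexes, females and males; filled points have an adjusted p below 0.05. Gabrd and Gabra5 lie on opposite sides of 0 under fluoxetine in both genotypes, and in females on fluoxetine 5 WT values lie above 0 and are called.

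Gabra3, Gabra4, Gabrb1 and Gabrb2 were higher in WT females on fluoxetine than in WT females on vehicle. Gabra4, whose α4 subunit often partners δ, had 2977, 3205, 3209, 3258 and 3263 normalised reads in WT females on fluoxetine, against 1957, 2103, 2308, 2665 and 2725 in WT females on vehicle. Gabrb1, a β subunit gene, had 3900.1, 4102, 4124, 4216 and 4554 on fluoxetine, against 2469, 3042, 3292, 3540.1 and 3655 on vehicle. For both genes, and for Gabra3 (α3, the main α subunit of young cortex), every WT fluoxetine female lay above every WT vehicle female. No share of all genes that separated so is given, and 39.8% of all genes were called in this comparison. The separations are therefore no result about the set. Gabra3 had 4292, 4457, 4588, 4724 and 4845 on fluoxetine, against 3504, 3531, 3859, 3989 and 3999 on vehicle. Gabrb2, also a β subunit gene, had 3578, 3822, 3889, 4101 and 4168 on fluoxetine, against 2392, 2826, 2873, 3394 and 3744 on vehicle, and 1 vehicle female overlapped the fluoxetine females. In these females Gabra3 rose by 0.28 ± 0.088 (adjusted p = 0.011), Gabra4 by 0.45 ± 0.14 (adjusted p = 0.013), Gabrb1 by 0.40 ± 0.12 (adjusted p = 0.0098) and Gabrb2 by 0.38 ± 0.13 (adjusted p = 0.021).

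With Gabrd higher and Gabra5 lower, 6 of 7 members were called in WT females on fluoxetine, 5 higher and 1 lower, beside 39.8% of all genes in that comparison (20.9% higher, 19% lower). Gabra2 was the exception, with 0.05 ± 0.21 (interval -0.38 to 0.48). The bulb marker means of these females did not overlap, at 4.07 to 7.37 on fluoxetine and 9.13 to 10.9 on vehicle. With that level as a covariate none of the 6 was called and 1 gene of 17781 was called in all (0.00562%). There, 0 members had an unadjusted p below 0.05. In the other 3 comparisons of a drug with vehicle in females 0 members were called by limma. At an unadjusted p below 0.05 there were 1 for fluoxetine in HT females, 0 for lithium in HT females and 1 for lithium in WT females, and 0%, 0.0169% and 0.00562% of all genes were called there. For fluoxetine in HT females the values were 0.17 for Gabra3, 0.20 for Gabra4, 0.20 for Gabrb1 and 0.22 for Gabrb2.

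In males these 4 genes were not called under either drug. Their values under fluoxetine in HT males lay between -0.27 for Gabrb1 and -0.18 for Gabrb2, and in WT males between -0.10 for Gabra3 and 0.06 for Gabrb2. Vehicle males had more of each gene on average than vehicle females. Gabrb1 averaged 4726 ± 465 in HT vehicle males and 3629.6 ± 836 in HT vehicle females, and 3970.2 ± 823 in WT vehicle males and 3199.6 ± 472 in WT vehicle females (SD, n = 5). Averaged over sexes, Gabrb2 was called under fluoxetine in WT mice (0.22 ± 0.093, adjusted p = 0.036), and the call was lost in 10 of 20 fits that left out 1 library, with the highest adjusted p, 0.142, without the fourth WT vehicle male. With the bulb covariate, whose means did not overlap between these groups, its value turned to -0.11 (adjusted p = 0.48). Gabra4 (0.21, adjusted p = 0.063) and Gabrb1 (0.19, adjusted p = 0.055) did not pass in that comparison, although each was called in 6 of 20 fits without 1 library. For fluoxetine in HT mice over both sexes, the bulb covariate gave Gabra3, Gabra4 and Gabrb1 as called and lower, beside 23.8% of all genes.

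Gabra2, which encodes the α2 subunit of synapses on the axon initial segment, varied unlike the other members. Its spread between libraries of a group was 0.35 on the log2 scale (SD around group means), wider than that of 96.8% of the 5862 genes with a mean of at least 1000, against 0.14 to 0.25 for the other 6 members. HT females on fluoxetine had 1602, 1680.1, 1805, 2719 and 2798 normalised reads and HT males 1527, 1653, 2799, 2886 and 2996. WT females on fluoxetine had 1653, 1691, 2494, 2529 and 2669 and WT males 1669.9, 1713, 1727, 2363 and 2485. In the 20 fluoxetine mice 10 lay at 1527 to 1805 and 10 at 2363 to 2996, and each of the 4 groups held mice on both sides. No fluoxetine library lay between 1805 and 2363. The gap was noticed after the values were seen.

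Lithium and vehicle mice filled the gap in part. Among 20 lithium mice 8 lay at or below 1805, 7 inside the gap and 5 at or above 2363, and among 20 vehicle mice 3, 4 and 13 did. HT lithium mice had 1573, 1912, 2219, 2822 and 3036 in females and 1625, 1690.01, 1768, 1890.1 and 2111 in males, and WT lithium mice had 1592, 1909, 1936, 2305 and 2639 in females and 1507, 1574, 1600.1, 2616 and 2962 in males. HT vehicle mice had 1749, 2239, 2407, 2627 and 2699 in females and 2352, 2481, 2589.9, 2652 and 3419 in males, and WT vehicle mice had 1647, 1667, 1851, 2648 and 2918 in females and 2337, 2523, 2736, 3727 and 4506 in males. The 3 highest values were those of vehicle males, and all 5 HT lithium males lay below all 5 HT vehicle males. As background, C57BL/6J mice carry an intronic deletion in Gabra2 that lowers its mRNA relative to other strains. Alleles of Gabra2 were not measured, and their part in this spread was not tested.

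Averaged over sexes, Gabra2 was not called under fluoxetine (-0.20 in HT mice, interval -0.51 to 0.10, and -0.30 in WT mice, interval -0.60 to 0.01) or under lithium (-0.30 in HT mice, adjusted p = 0.14, and -0.33 in WT mice, adjusted p = 0.069). The WT lithium value was called in 6 of 20 fits without 1 library, and the WT fluoxetine value in 1, without the first WT vehicle male. In males alone it fell under lithium by 0.56 ± 0.21 in HT mice (adjusted p = 0.032) and by 0.64 ± 0.21 in WT mice (adjusted p = 0.011), and under fluoxetine by 0.64 ± 0.21 in WT mice (adjusted p = 0.0087). In males alone 2 members were called under each drug in HT mice and 3 under each drug in WT mice, beside 41.4% and 58% of all genes under fluoxetine in HT and WT males and 36.9% and 48.2% under lithium in HT and WT males. In females the 4 values lay between -0.17 for fluoxetine in HT mice and 0.05 for fluoxetine in WT mice.

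**Figure D3:**
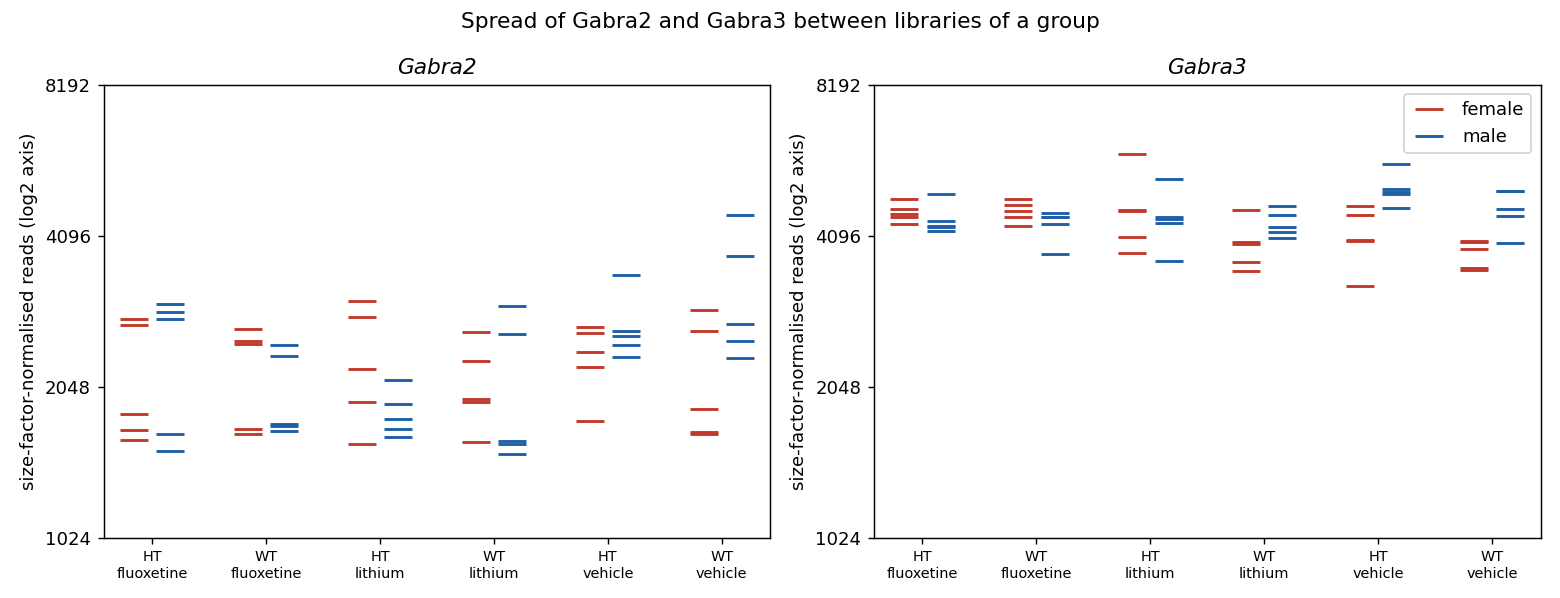
Normalised reads of Gabra2 and, for comparison, Gabra3 (y axes, log2 scale) in each library, 1 dash per mouse, by genotype and treatment (x axis) and sex (colour). In the fluoxetine groups the Gabra2 dashes leave 1805 to 2363 empty, while the Gabra3 dashes of a group lie closer together.

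For HT against WT mice, 0 members were called by limma under vehicle, beside 0.0337% of all genes. At an unadjusted p below 0.05 there were 4. The shares of all genes given in this text are at adjusted p. Counts at an unadjusted p have no such share beside them and are no result about the set. DESeq2 called 1 (Gabra4), beside 8.9% of all genes, and edgeR 0. Under vehicle Gabra4 had lowest, median and highest values of 1756, 3496 and 4388 normalised reads in HT mice, against 1938, 2695 and 3850.2 in WT mice. Gabra5 had 1573, 1976 and 3643 in HT mice, against 1935, 2346 and 4708 in WT mice. The ranges overlapped for both genes. The values were 0.27 ± 0.1 for Gabra4 (adjusted p = 0.083), -0.30 ± 0.11 for Gabra5 (adjusted p = 0.08), 0.22 ± 0.086 for Gabrb1 (adjusted p = 0.09) and 0.22 ± 0.093 for Gabrb2 (adjusted p = 0.11). Gabra2 had -0.02 (interval -0.32 to 0.28), Gabra3 0.12 (interval -0.00 to 0.25) and Gabrd 0.10 (interval -0.03 to 0.23).

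These calls depended on single libraries, most of all on 1 HT vehicle female. This mouse had 1756 normalised reads of Gabra4 and 3643 of Gabra5, a bulb marker mean of 10.9 and an excitatory marker mean of 10.1, where the other 4 of its group had bulb means of 5.13 to 9.28 and excitatory means of 11.2 to 11.5. Without it, 5 members were called under vehicle (Gabra3, Gabra4, Gabrb1 and Gabrb2 higher, Gabra5 lower), beside 35.3% of all genes. Leaving out the second HT vehicle male or the fourth WT vehicle female gave 3 calls (Gabra4 and Gabrb1 higher, Gabra5 lower), beside 17% and 17.6% of all genes, and leaving out the first WT vehicle male added Gabrb2, beside 20.7%. With the bulb covariate and all libraries 0 members and 0.00562% of all genes were called by limma. The bulb markers of vehicle mice stood lower in HT than in WT mice, as given above, and their part in the values without this mouse was not tested.

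Under fluoxetine and under lithium 0 members were called between HT and WT mice by limma, edgeR and DESeq2, and 0 had an unadjusted p below 0.05, beside 0.0112% and 0.00562% of all genes called by limma. Under fluoxetine the 7 values lay between -0.04 for Gabrd (interval -0.17 to 0.10) and 0.07 for Gabra2 (interval -0.23 to 0.38). Under lithium the highest was 0.17 for Gabra4 (interval -0.04 to 0.37). Averaged over treatments 0 members were called by limma, edgeR and DESeq2, with 3 at an unadjusted p below 0.05, beside 1.21% of all genes called. Gabra4 had 0.16 ± 0.059 there (adjusted p = 0.12), and without the HT vehicle female described above Gabra3, Gabra4 and Gabrb1 were called, beside 16.1% of all genes. The interaction of genotype with fluoxetine and that with lithium called 0 members and 0% of all genes, and each had 1 member, Gabra5, with an unadjusted p below 0.05.

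Fluoxetine and lithium were also set against each other in differences that hold no vehicle level, with the spread taken from all 60 libraries. By limma, edgeR and DESeq2 0 members were called in either genotype, beside 4.41% of all genes in HT mice and 18.8% in WT mice, and 0 members in HT and 2 in WT mice had an unadjusted p below 0.05. Gabra5 had -0.20 ± 0.11 in HT mice (adjusted p = 0.29) and -0.25 ± 0.11 in WT mice (adjusted p = 0.096). It was called in both genotypes when only the compared groups were in the fit, beside 7.28% of all genes in HT and 27.4% in WT mice. With the excitatory marker level as a covariate it was again called in both genotypes, and Gabrd in WT mice, beside 14.2% of all genes in HT and 23.6% in WT mice. For Gabra5 in HT females every mouse on fluoxetine (1532 to 1671 normalised reads) lay below every mouse on lithium (1679 to 2068). In WT females and in males of each genotype the Gabra5 values on fluoxetine and lithium overlapped. Gabrd had 0.08 ± 0.065 in HT mice (adjusted p = 0.52) and 0.16 ± 0.065 in WT mice (adjusted p = 0.078), and the WT value was called without the second WT lithium female (0.19, adjusted p = 0.027).

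Between libraries of the same group, 6 of the 7 genes moved together or in mirror image. These correlations are Pearson's r over 60 libraries around the group means, and the points share depth, tissue content and normalisation. Some vehicle libraries lay far from the rest of their groups. The fourth WT vehicle male had an excitatory marker mean of 9.54 and 4708 normalised reads of Gabra5. The first HT vehicle female had 10.1 and 3643, and r without these libraries is not given. Gabra4 had r = 0.90 with Gabra3 and 0.86 with its neighbour Gabrb1, and Gabrb1 had r = 0.87 with Gabrb2. Gabra5 had r = -0.83 with Gabrb1, -0.72 with Gabra4 and -0.73 with Gabrd. Gabra2 lay between -0.22 and 0.24 with all 6 others. The same libraries ordered by marker levels: with the excitatory neuron list r was 0.90 for Gabrb1, 0.85 for Gabrb2, 0.81 for Gabra4, 0.82 for Gabrd, 0.62 for Gabra3, -0.86 for Gabra5 and -0.35 for Gabra2. With the olfactory bulb list r was 0.49 for Gabra5, 0.12 for Gabra2 and -0.68 to -0.56 for Gabra3, Gabra4, Gabrb1, Gabrb2 and Gabrd. Other marker lists had large r too. With the cerebellar granule cell list r was 0.68 for Gabra5, 0.25 for Gabra2 and -0.81 to -0.60 for the same 5 genes. Only 3 markers of that list were measured, Cbln1, Cbln3 and Zic1, and Cbln3 had a mean of 14.6 normalised reads.

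The genes most alike in this measure, among 12825 genes with a mean of at least 50, were Megf9, Rgs7 and Tmem196 for Gabra4 (r = 0.95 to 0.96), Lsamp, Dock4 and Dgkh for Gabrb1 (0.96 to 0.97), and Grin2b and Nbea for Gabrb2 (0.95 and 0.94). Grin2b is an NMDA receptor subunit gene and Lsamp a neuronal adhesion gene. For Gabra3 they were Slc30a4, Psd3 and Zfp367 (0.91 to 0.93), for Gabrd Pou3f1, Cyp46a1 and Hras (0.92 to 0.93), and for Gabra5 Sec14l1, Dync1i1 and Ppp1cc (0.92 to 0.93). Gabra2 had no such partner. Its nearest genes were Txndc12, Stk38l and Gtpbp10, at 0.50 to 0.52.

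**Figure D4:**
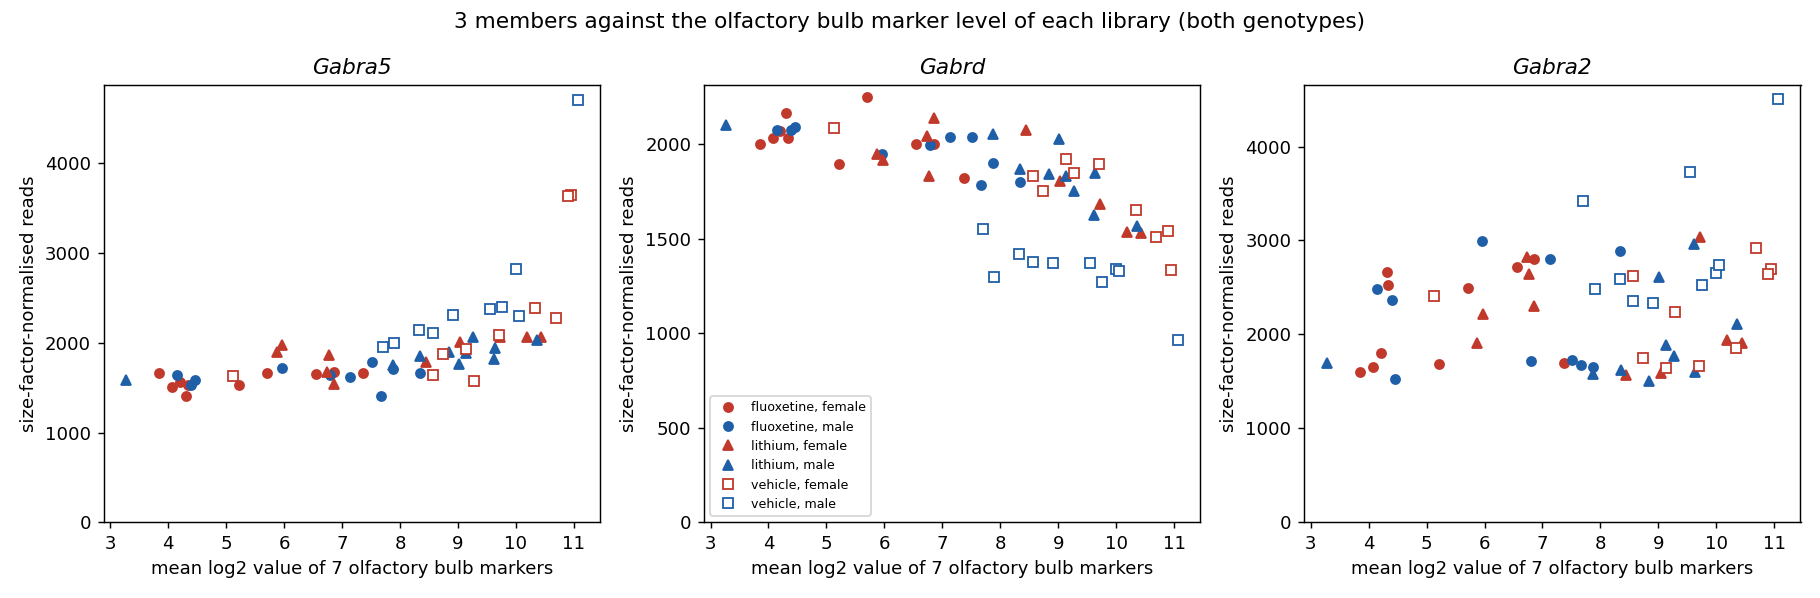
Normalised reads of Gabra5, Gabrd and Gabra2 (y axes, from 0) against the mean log2 value of 7 olfactory bulb markers (x axis) in 60 libraries, by treatment (shape) and sex (colour). The 3 libraries with the most Gabra5 are the 3 with the highest bulb marker level, all on vehicle, and the vehicle males lie at 965 to 1550.2 for Gabrd.

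Lists of other genes of the pathway are given as context, and nothing in them is called particular to a list. For fluoxetine the counts stand beside 40.8% of all genes called in HT and 63.2% in WT mice, for lithium beside 23.2% in HT and 42.7% in WT mice, and for WT females on fluoxetine beside 39.8% (20.9% higher, 19% lower). With the bulb covariate in WT females on fluoxetine limma called 0 of the 52 list genes, with 2 at an unadjusted p below 0.05. In the other 3 comparisons of a drug with vehicle in females limma called 0 of them, beside the 0%, 0.0169% and 0.00562% of all genes given above. Between HT and WT mice under vehicle limma and edgeR called 0 of the 52, beside 0.0337% and 0.0506% of all genes. DESeq2 called 9, beside 8.9% of all genes. At an unadjusted p below 0.05 there were 27, with no share of all genes to set beside them.

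Among the other subunit genes, 7 of 12 were in the table. Under fluoxetine 0 rose and 2 fell in HT mice, and 2 rose and 3 fell in WT mice. In WT females on fluoxetine 4 of the 7 rose and 1 fell, with Gabrg1 at 0.47 ± 0.12 and Gabrg3 at 0.49 ± 0.15, and Gabrq fell by 0.51.

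Of 8 genes for making, packaging, taking up and breaking down GABA, 0 rose and 4 fell under fluoxetine in HT mice, and 0 rose and 6 fell in WT mice. Gad1 and Gad2, the enzymes that make GABA, had -0.55 and -0.47 in HT mice and -1.04 and -0.72 in WT mice on fluoxetine. In WT females on fluoxetine 7 of the 8 fell, with Gad1 at -1.14 and Gad2 at -0.67, and in HT females Gad1 had -0.73 (adjusted p = 0.16) and Gad2 -0.38 (adjusted p = 0.16). Under lithium 1 rose and 0 fell in HT mice, and 1 rose and 2 fell in WT mice. GABAergic granule cells are abundant in the olfactory bulb, whose markers were lower in these fluoxetine libraries, and the mean log2 value of 10 interneuron markers was 10.3 and 10.2 in HT and WT mice on fluoxetine, against 10.5 in vehicle mice of each genotype. That of 5 astrocyte markers was 12.1 in fluoxetine mice of each genotype, against 12.3 and 12.4 in HT and WT mice on vehicle. The part of bulb tissue and of these cell types in these changes and in those of the lists that follow was not tested.

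Of 20 genes that anchor or traffic the receptor, 8 rose and 4 fell under fluoxetine in HT mice and 10 rose and 5 fell in WT mice. Under lithium 5 rose and 1 fell in HT mice, and 8 rose and 3 fell in WT mice. Nlgn2, the neuroligin of inhibitory synapses, rose by 0.28 and 0.32 under fluoxetine in HT and WT mice and by 0.22 and 0.26 under lithium in HT and WT mice. Zdhhc3, an enzyme that palmitoylates γ subunits, rose by 0.11 and 0.20 under fluoxetine in HT and WT mice. In WT females on fluoxetine Nlgn2 had 0.11 (adjusted p = 0.11) and Zdhhc3 rose by 0.14.

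Of 6 chloride transport genes, 1 rose and 4 fell under fluoxetine in each genotype, and 1 rose and 3 fell under lithium in each genotype. Slc12a5 (KCC2), which lowers neuronal chloride, rose by 0.36 and 0.49 under fluoxetine in HT and WT mice and by 0.24 and 0.33 under lithium in HT and WT mice. Slc12a2 (NKCC1), which raises chloride, fell by 0.36 and 0.40 under fluoxetine in HT and WT mice. In WT females on fluoxetine Slc12a5 rose by 0.31 (adjusted p = 0.011), and Slc12a2 had -0.21 (adjusted p = 0.11). Of 6 GABA-B receptor genes, 0 rose and 2 fell under fluoxetine in HT mice and 3 rose and 2 fell in WT mice, where Kctd12, an auxiliary subunit gene, fell by 1.08. Of 5 measured neurosteroid synthesis genes, 0 rose and 1 fell under fluoxetine in HT mice and 0 rose and 2 fell in WT mice, with Akr1c14, which makes allopregnanolone, at -0.39 and -0.62 in HT and WT mice. In WT females on fluoxetine Kctd12 fell by 0.93 and Akr1c14 had -0.23 (adjusted p = 0.38).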

How the data were processed

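Libraries were made with a strand-marking mRNA kit, as the labels' protocols say. The deposited table holds a signal per gene and library, made by the authors as read numbers divided by a size factor (0.818 to 1.33). Dividing each library by its lowest non-zero value gave whole reads for 100% of values, at a tolerance of 1e-06 (median 28721151 reads per library). The submitters' processing notes name Salmon 0.11.2, R 3.6.0, DESeq2 1.19.11 and GRCm38. The sources used here do not give the annotation or strand setting.

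For the 17781 genes that reached 10 in 5 or more libraries, log2(value + 1) was fitted by limma 3.58.1 (R 4.3.3, trended prior variance) with 12 group means and two-sided Benjamini-Hochberg adjusted p-values within each of 12 contrasts. Females and males alone are contrasts of the same fit. Intervals are 95%. Covariates were the mean log2 value of a marker list. edgeR 4.0.16 and DESeq2 1.42.0 were run on the recovered reads. The test was checked on simulated data in which libraries differed in depth but not in tissue content. That check therefore cannot speak of the marker differences seen here. Pairs of libraries of a group correlated at 0.953 to 0.991 and differed beyond sampling noise (chi-square per degree of freedom of at least 3.11). Of the identifiers, 18077 matched a symbol. Promoter sequences are RefSeq's, in GRCm38.p6.

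The text names all 7 members, up to 3 genes of each pathway list per contrast with the smallest p, and the 3 genes most alike to each member. Some genes that this rule names are not reported here. List genes named in further contrasts were chosen after their values were seen. Members and lists were chosen with earlier results of these data known.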

Additional observations from a re-analysis of the deposited data

Results flagged for a closer look

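Within groups of 5, a library stood far from the other 4 by Dixon's test in 12 of 84 groups of a member, where chance gives about 1 in 20. Gabra5 had 4 of these, all in vehicle mice. The HT vehicle female described above had 3642.9 normalised reads beside 1572.8 to 1870.5 in the others, and an HT vehicle male had 2826.1 beside 1953 to 2145.8. A WT vehicle female had 3636.8 beside 1934.8 to 2381.9, and the fourth WT vehicle male had 4707.9 beside 2301.9 to 2397.2. That WT male also had the lowest Gabrd, 964.9 beside 1270.4 to 1373, and the highest bulb marker mean of all libraries, 11.1. The HT male with high Gabra5 had 3933.8 of Gabrb1 beside 4753.3 to 5071.0 in the others.

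In HT males on fluoxetine the second mouse was high for Gabra3 (4966.3 beside 4197 to 4382.4) and for Gabra4 (3865.0 beside 3022.4 to 3160). In WT males on fluoxetine the third was low for Gabra3 (3769.8 beside 4321.2 to 4541.8) and for Gabrd (1781.6 beside 1992.4 to 2075). A WT female on fluoxetine had 2977.0 of Gabra4 beside 3204.7 to 3263.4. For Gabra2 an HT vehicle male had 3418.9 beside 2352.3 to 2651.9.

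The sexes moved apart under fluoxetine for 3 members, with every female above the mean of her vehicle group and every male below his. The difference between sexes (log2, female minus male) was 0.367 for Gabra3, 0.471 for Gabrb1 and 0.397 for Gabrb2 in HT mice, and 0.381 for Gabra3 in WT mice. These differences were not tested, and the males are compared with the vehicle males that stood apart.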

How the results depend on the processing

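The count of members called changed by more than 1.5 times in these settings. In females alone it was 6 for fluoxetine in WT mice, beside 39.8% of all genes. It was 0 in females for fluoxetine in HT mice and for lithium in either genotype. With the bulb covariate in females it was 0 in all 4. The bulb covariate over both sexes gave 4 for fluoxetine in HT mice (Gabra3, Gabra4 and Gabrb1 lower, Gabrd higher), beside 23.8% of all genes. Males alone gave 2 for lithium in HT mice, beside 36.9%. DESeq2 gave 1 for HT against WT under vehicle, beside 8.9%. For fluoxetine against lithium, fitting only the compared groups gave 1 in HT and 1 in WT mice, beside 7.28% and 27.4% of all genes. The excitatory neuron covariate there gave 1 in HT and 2 in WT mice, beside 14.2% and 23.6% of all genes. For fluoxetine in WT mice, whose bulb means did not overlap those on vehicle, Gabra3 turned to -0.18 (adjusted p = 0.042) with the bulb covariate. Gabrb2 there turned to -0.11 with that covariate, -0.0012 with the striatum and choroid plexus covariates, -0.0054 in females with the bulb covariate and -0.059 with the excitatory covariate. Gabrd turned to -0.020 and -0.045 for fluoxetine in HT and WT mice and to -0.047 for lithium in WT mice in females with the bulb covariate. Gabrb1 turned to -0.11 for lithium in WT mice with the excitatory covariate. The cause was not tested.

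Leaving out 1 library at a time gave 0 to 5 for HT against WT under vehicle, 0 to 3 for that averaged over treatments, 1 to 2 for fluoxetine in HT and 2 to 6 in WT mice, 1 for lithium in HT and 2 to 3 in WT mice, 0 to 1 for fluoxetine against lithium in WT mice and 0 in the others. The 6 for fluoxetine in WT mice came without the first WT vehicle male, and that fit called 11474 genes in all. With all libraries, 11239 genes (63.2%) were called in that comparison. The other counts without a library have no share of all genes beside them here. None of these counts is a result about the set. Of 1260 fold changes under the other settings, 1217 kept their call, 14 lost and 20 gained one and 9 are the turns above; 157 of the 1217 changed sign without a call in either fit. The females with the bulb covariate and the excitatory covariate were added after the data had been seen. Same-numbered mice did not deviate together (mean r 0.00608, -0.565 to 0.616, 330 pairs), so the numbers do not pair them. A replicate block gave 4 calls for fluoxetine in WT mice, beside 63.4% of all genes, and the same counts elsewhere. Every member value rests on at least 1002 reads.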
